A study of Homo sapiens with 18 samples.

Results

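The 9 genes described here are SHH, PTCH1, CDON, BOC, HHIP, GLI1, GLI2, GLI3 and FOXA2, the core of the Hedgehog pathway together with a transcription factor of the floor plate. They were taken by symbol as 9 of the 37550 rows of a table of TPM values, a length-scaled relative abundance of transcripts, in 18 poly-A RNA libraries of the human pluripotent stem cell line H1. All members were found in the table. The cells were unmodified, and every group had 2 biological replicates, named replicate 1 and replicate 2 below.

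The groups followed 2 routes from stem cells to neural progenitors. Undifferentiated cells at day 0 were labelled hPSC. All other groups first passed through 1 day of an ectoderm medium with the activin receptor inhibitor A8301 at 1 µM, the MEK inhibitor trametinib at 250 nM, the porcupine inhibitor C59 at 1 µM and the BMP receptor inhibitor LDN193189 at 100 nM. Anterior neural ectoderm (aNE) at day 2 had then been given A8301 at 1 µM, LDN193189 at 100 nM and C59 at 1 µM, which blocks WNT secretion. Posterior neural ectoderm (pNE) at day 2 had been given A8301 and LDN193189 with 3 further agents, the retinoid TTNPB (50 nM), the growth factor FGF2 (20 ng/mL) and XAV939 (1 µM), which inhibits tankyrase. Cells of each origin were then kept to day 4 in media for forebrain, midbrain or hindbrain, which gave aNE_T, aNE_M and aNE_H on one side and pNE_T, pNE_M and pNE_H on the other. On day 3 the forebrain medium held XAV939 at 1 µM, LDN193189 at 100 nM and FGF2 at 20 ng/mL. What the midbrain and hindbrain media held is not used here, so whether a Hedgehog agonist or antagonist was present is not known from the sources used. Plating density was 37500 cells per cm2 for both origins at day 2, but 75000 for aNE-derived and 150000 for pNE-derived cells at day 4. Origin and density therefore cannot be told apart at day 4.

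Hedgehog ligands bind the membrane protein Patched, which otherwise holds the transducer Smoothened inactive. Once Smoothened is released, GLI transcription factors become activators, by steps at the primary cilium, rather than being processed into repressors. In the neural tube SHH comes first from the notochord and then from the floor plate, the ventral midline strip marked by FOXA2, and its gradient sets ventral cell fates against dorsal ones. PTCH1, HHIP and GLI1 are themselves transcribed in response to the pathway, while CDON and BOC tend to be reduced where the pathway is strong.

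GLI proteins are known to bind the 9 letters GACCACCCA, and FOXA2, a forkhead protein, can bind TGTTTAC. Both were searched on both strands in RefSeq start-site windows of 300 bases on GRCh38.p14, where 6 of the members had 14 windows: 1 for SHH, 5 for PTCH1, 3 for CDON, 2 for BOC, 1 for HHIP and 2 for GLI2. The GLI letters were in 83 of all 35116 windows (0.236%) and in 1 of the 14 member windows, that of a PTCH1 start inside the gene. The forkhead letters were in 1202 windows (3.42%) and in 3 of the 14, 2 of PTCH1 and 1 of BOC. The 250 bases before the start are shown 5′ to 3′ for the SHH window, the PTCH1 window with the GLI letters and a PTCH1 window with forkhead letters on each strand. Capitals mark the matched letters, and the SHH window had neither motif. None of the 3 stretches touched an annotated exon of its own gene, and exons of other genes were not checked. Both PTCH1 stretches lay in introns of PTCH1, and all 3 stretches are on the minus strand.
SHH, chr7:155812464-155812713: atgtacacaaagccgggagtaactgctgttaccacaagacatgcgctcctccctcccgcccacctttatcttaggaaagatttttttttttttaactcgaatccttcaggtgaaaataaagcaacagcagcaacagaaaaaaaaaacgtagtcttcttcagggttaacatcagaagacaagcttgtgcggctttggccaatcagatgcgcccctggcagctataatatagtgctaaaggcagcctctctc
PTCH1 with GLI letters, chr9:95509267-95509516: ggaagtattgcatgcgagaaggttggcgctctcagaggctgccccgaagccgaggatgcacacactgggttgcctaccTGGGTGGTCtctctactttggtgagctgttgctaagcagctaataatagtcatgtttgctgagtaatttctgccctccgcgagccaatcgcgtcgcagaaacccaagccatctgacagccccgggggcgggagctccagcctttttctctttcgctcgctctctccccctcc
PTCH1 with forkhead letters, chr9:95507428-95507677: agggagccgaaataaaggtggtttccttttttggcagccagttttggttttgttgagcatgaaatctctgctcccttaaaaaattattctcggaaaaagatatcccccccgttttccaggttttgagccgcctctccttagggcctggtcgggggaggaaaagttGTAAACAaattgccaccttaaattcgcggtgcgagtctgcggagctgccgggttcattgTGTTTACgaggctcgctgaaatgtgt
The GLI match reads as the reverse complement, TGGGTGGTC, at chr9:95509430-95509438, beginning at position -172 from the start. A match is a description of the letters and not a bound site.

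Each library had 13686 to 14679 genes at 1 TPM or more, and the correlation between replicates across genes was 0.982 to 0.987. TPM keeps no read number, so the depth of the libraries is unknown. The summed TPM of 3 pluripotency markers (POU5F1, NANOG, DPPA4) was 3471 and 3478 in hPSC and 56.4 to 387 in all other libraries. For 3 neural ectoderm markers (SOX1, SOX2, PAX6) the sum was 74.3 to 479 over all libraries, carried largely by SOX2, which hPSC expressed too. SOX1 was low in the posterior route, at group means of 1.14 TPM in pNE, 1.39 in pNE_T, 1.19 in pNE_M and 0.108 in pNE_H, against 7.20 in aNE. Sums for neural crest markers (SOX10, FOXD3, TFAP2A) were 0.718 to 39.9 TPM, highest in hPSC through FOXD3. After hPSC they were highest in pNE_M (18.5 to 26.0 TPM), pNE_H (13.7 to 17.8) and aNE_H (6.72 to 9.55), and at most 4.26 TPM elsewhere. Those for surface ectoderm markers (GRHL2, TP63, KRT8) were 289.7 to 1006 TPM, highest in pNE_M (987 to 1006) and lowest in aNE_T (289.7 to 297.9). Undifferentiated hPSC had 327 to 335 TPM, so this sum is not particular to surface ectoderm. Of these 3 markers, 2 reached 1 TPM in at least 2 libraries. The part of neural crest or surface ectoderm cells in the member levels was not tested. In bulk RNA, fewer cells of a type and less RNA per cell cannot be told apart.

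Below, a difference is on the log2(TPM + 1) scale, with its standard error (SE), and a gene is said to have risen or fallen where limma's adjusted p was under 0.05 and the absolute difference at least 1. The pseudocount of 1 understates changes of genes near or under 1 TPM, above all SHH and FOXA2. All 9 members passed the filter of at least 1 TPM in 2 libraries, but SHH reached 1 TPM in 3 libraries and FOXA2 in 6, so these 2 were tested only because of the groups where they were high.

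SHH (chr7:155799986-155812273, minus strand, GRCh38), the ligand, appeared in 2 groups of the posterior route and was near 0 elsewhere. In hPSC it was listed at 0 and 0.0164 TPM, in aNE at 0 and 0.0169 TPM, and in pNE at 0.170 and 0.143 TPM. The aNE-derived libraries had 0.0499 and 0.0933 TPM in forebrain medium, 0.0155 and 0.0128 in midbrain medium and 0.0379 and 0.0184 in hindbrain medium. The pNE-derived libraries had 2.01 and 2.39 TPM in forebrain medium, 0.0144 and 0.0340 in midbrain medium and 0.775 and 2.47 in hindbrain medium. Thus both pNE_T libraries and both pNE_H libraries lay above every other library, while pNE_M lay within the range of the aNE-derived cells. In the order of group means, pNE_T and pNE_H overlapped, pNE and aNE_T followed as separate steps, and the last 5 groups overlapped with their neighbours.

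The rise of SHH from pNE to pNE_T was 1.47 (SE 0.25, adjusted p = 0.000608), and the difference between pNE_T and aNE_T was 1.58 (adjusted p = 0.000498). In hindbrain medium SHH was 1.10 higher than in pNE (adjusted p = 0.00402), 1.27 higher than in aNE_H (adjusted p = 0.00265) and 1.28 higher than in pNE_M (adjusted p = 0.00293). These 3 results of pNE_H rested on replicate 2, without which they were 0.62, 0.79 and 0.79. In midbrain medium SHH was 1.64 lower than in forebrain medium (difference -1.64, adjusted p = 0.000286). Forebrain and hindbrain medium did not differ by the test in pNE-derived cells (difference -0.37, adjusted p = 0.382).

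PTCH1 (chr9:95442980-95517057, minus strand), the receptor, was expressed in all 18 libraries and rose along both routes. It stood at 12.7 and 10.3 TPM in hPSC, 29.6 and 28.1 TPM in aNE and 23.8 and 26.5 TPM in pNE. After aNE it stayed between 30.4 and 40.3 TPM, with 33.6 and 30.4 in aNE_T, 31.7 and 39.2 in aNE_M and 40.3 and 35.6 in aNE_H. After pNE it was 53.9 and 55.6 TPM in pNE_T, 85.3 and 78.6 in pNE_M and 47.8 and 50.6 in pNE_H. Every pNE-derived library at day 4 was above every aNE-derived one, with pNE_M highest, followed by pNE_T and pNE_H without overlap. The 3 aNE-derived groups overlapped with their neighbours in the order.

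On entry to neural ectoderm PTCH1 rose by 1.26 in aNE (SE 0.12, adjusted p = 2.9e-06), and the rise in pNE was 1.07 (adjusted p = 1.33e-05). The second call rested on the size limit, since the difference was 0.93 without replicate 2 of hPSC and 0.997 without replicate 2 of pNE. From pNE it rose by 1.09 in pNE_T (adjusted p = 1.36e-05) and by 1.66 in pNE_M (adjusted p = 1.95e-07). In pNE_H the difference was 0.94 (adjusted p = 4.11e-05), short of the size limit, and 1.02 without replicate 2 of pNE. Scalings of the table, by median ratio and by quantiles, gave 1.04 and 1.02 for it and 0.996 and 0.98 for pNE against hPSC. From aNE the differences were 0.14, 0.28 and 0.38 in aNE_T, aNE_M and aNE_H, none of them called. In midbrain medium pNE-derived cells were 1.19 above aNE-derived cells (adjusted p = 1.01e-05). The highest PTCH1 level was therefore in pNE_M, where the SHH mean was 0.0242 TPM, and the levels of the 2 genes did not follow the same order of groups.

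**Figure D1:**
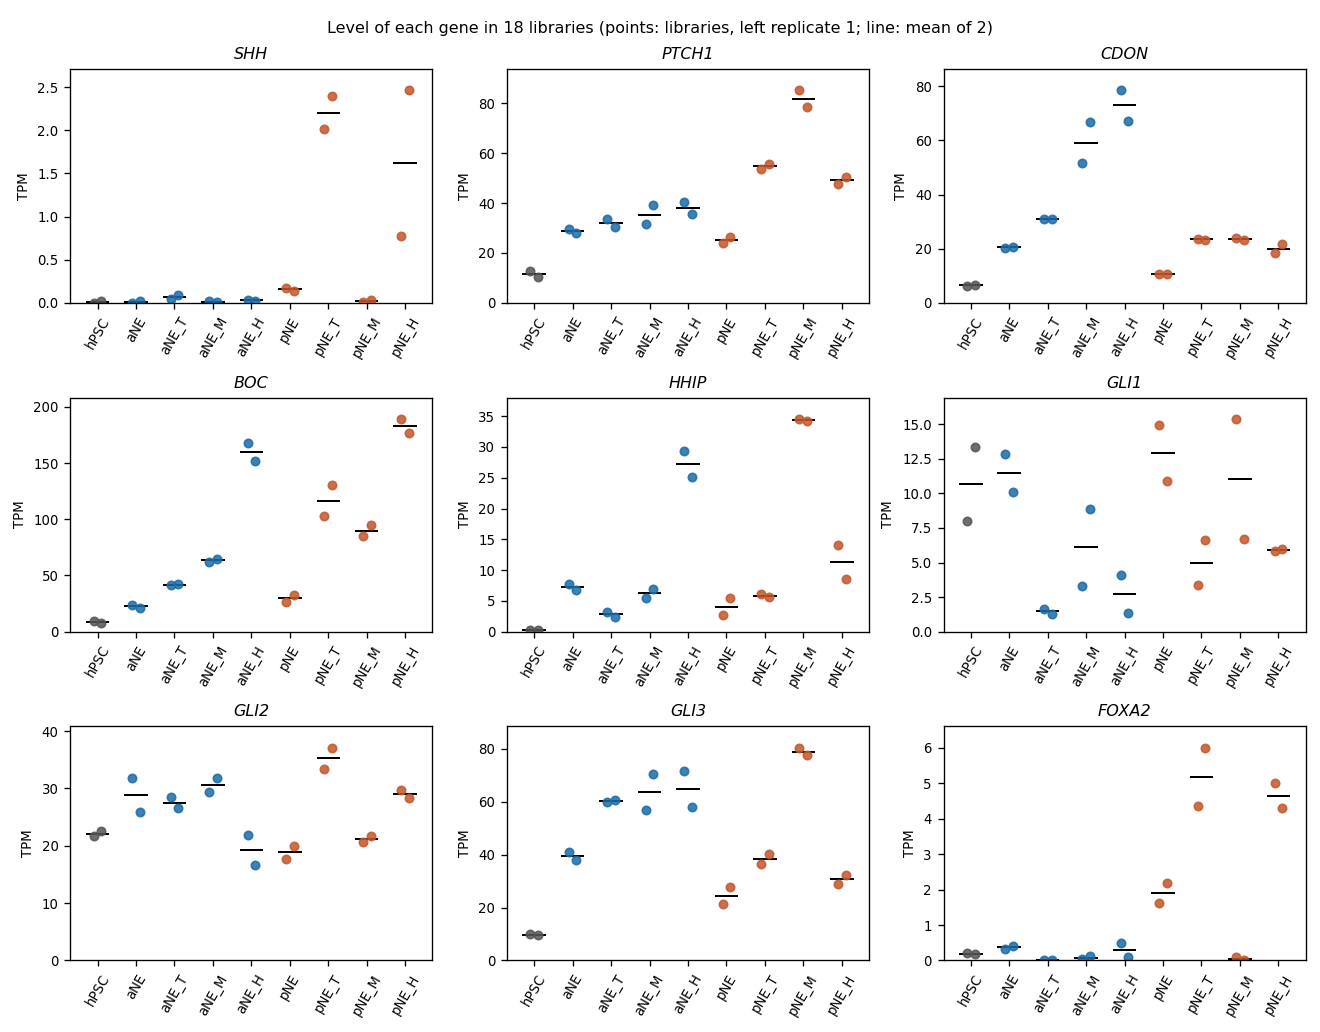
TPM of each of the 9 genes (vertical axis, own scale per gene from 0) in the 9 groups (horizontal axis), with 1 point per library, replicate 1 on the left, and a line at the mean of 2. Grey marks hPSC, blue aNE and its derivatives, orange pNE and its derivatives. SHH and FOXA2 stand above 0.7 TPM only in pNE-route groups, and PTCH1, GLI3 and HHIP have their highest mean in pNE_M.

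CDON (chr11:125955796-126063335, minus strand) and BOC (chr3:113211003-113287459, plus strand), related co-receptors that bind the ligand together with Patched, had their lowest levels in stem cells. CDON was at 6.39 and 6.70 TPM in hPSC, 20.4 and 20.6 in aNE and 10.6 and 10.6 in pNE. At day 4 it was at 31.0 and 30.9 TPM in aNE_T, 51.6 and 66.8 in aNE_M and 78.6 and 67.4 in aNE_H. The pNE-derived libraries were lower, at 23.8 and 23.3 TPM in pNE_T, 24.1 and 23.1 in pNE_M and 18.3 and 21.7 in pNE_H. All aNE-derived libraries exceeded all pNE-derived ones, and within pNE-derived cells the forebrain and midbrain groups overlapped.

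The increase of CDON from hPSC was 1.51 in aNE (SE 0.12, adjusted p = 5.27e-07), while in pNE it was 0.62 (adjusted p = 0.00101) and under the size limit. It rose further by 1.48 in aNE_M (adjusted p = 5.8e-07) and 1.78 in aNE_H (adjusted p = 1.5e-07), and by 1.08 in both pNE_T and pNE_M (adjusted p = 1.4e-05 and 1.07e-05). Set against the aNE-derived cells, CDON of pNE-derived cells was lower in midbrain medium (difference -1.28, adjusted p = 5.21e-06) and in hindbrain medium (difference -1.82, adjusted p = 1.53e-07). In forebrain medium the difference was -0.38 (adjusted p = 0.0361).

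BOC, in contrast to CDON, was at its highest in hindbrain medium from either origin. Its levels were 9.59 and 7.49 TPM in hPSC, 23.8 and 21.2 in aNE and 26.0 and 32.9 in pNE. The aNE-derived groups stood at 41.2 and 42.7 TPM in forebrain, 62.2 and 64.9 in midbrain and 168 and 152 in hindbrain medium. The pNE-derived groups stood at 103 and 130.1 TPM in forebrain, 84.8 and 94.7 in midbrain and 189 and 177 in hindbrain medium. No neighbouring groups in the order of BOC levels overlapped, from pNE_H down through aNE_H, pNE_T, pNE_M, aNE_M, aNE_T, pNE and aNE to hPSC. With 2 libraries per group this order is a description and not a test. Steps such as pNE_H to aNE_H and pNE to aNE were not called (differences 0.19 and 0.37, adjusted p = 0.371 and 0.104 in limma). The share of all genes with such separation was not counted, here or for the other members.

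BOC rose by 1.31 in aNE and 1.68 in pNE against hPSC (SE 0.14, adjusted p = 8e-06 and 8.89e-07). From aNE it rose by 1.46 in aNE_M and 2.78 in aNE_H (adjusted p = 2.81e-06 and 1.05e-08), and the difference in aNE_T was 0.87 (adjusted p = 0.000343). From pNE it rose in all 3 media, by 1.95, 1.58 and 2.60 in pNE_T, pNE_M and pNE_H (adjusted p = 2.63e-07, 1.31e-06 and 1.41e-08). Between origins it was 1.45 higher in pNE_T than in aNE_T (adjusted p = 4.92e-06), and the difference was 0.49 in midbrain medium (adjusted p = 0.0271) and 0.19 in hindbrain medium (adjusted p = 0.371). Hindbrain exceeded midbrain medium by 1.32 in aNE-derived cells (adjusted p = 1.92e-05) and by 1.02 in pNE-derived cells (adjusted p = 0.000148). The second of these was 0.97 without replicate 1 of pNE_H and 0.94 without replicate 1 of pNE_M.

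Since TPM is per transcript length, the 2 co-receptors can be set against each other within a library. The ratio of BOC to CDON was 1.499 and 1.12 in hPSC, 1.17 and 1.03 in aNE, 1.33 and 1.38 in aNE_T, 1.21 and 0.972 in aNE_M and 2.14 and 2.25 in aNE_H. On the posterior side it was 2.45 and 3.09 in pNE, 4.34 and 5.57 in pNE_T, 3.51 and 4.10 in pNE_M and 10.3 and 8.15 in pNE_H. Every library of pNE or its derivatives had a higher ratio than every library of hPSC, aNE or its derivatives. The ratio was described without a test.

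**Figure D2:**
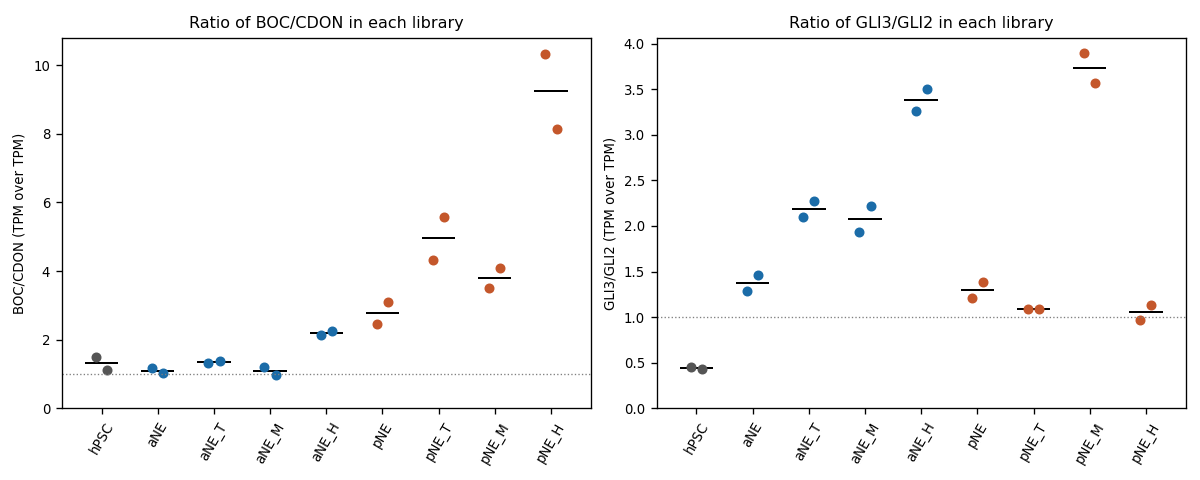
Ratio of TPM of BOC to CDON (left) and of GLI3 to GLI2 (right) in each library (points, replicate 1 on the left) of the 9 groups, with a line at the mean of 2 and a dotted line at a ratio of 1. The BOC/CDON ratio of the posterior route starts at 2.45, and the GLI3/GLI2 ratio is near 1 in pNE_T and pNE_H and above 3 in aNE_H and pNE_M.

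HHIP (chr4:144646021-144745271, plus strand), a membrane protein that binds and sequesters Hedgehog ligands, had the widest range of group means of the 9 members on the log2(TPM + 1) scale. It stood at 0.263 and 0.280 TPM in hPSC, 7.74 and 6.74 in aNE and 2.69 and 5.43 in pNE. At day 4 after aNE it was at 3.15 and 2.41 TPM in aNE_T, 5.53 and 6.90 in aNE_M and 29.3 and 25.1 in aNE_H. After pNE it was at 6.05 and 5.64 TPM in pNE_T, 34.6 and 34.3 in pNE_M and 14.1 and 8.58 in pNE_H. The medium with the highest level thus was hindbrain after aNE and midbrain after pNE, and neither pair overlapped with the other media of its origin.

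HHIP rose by 2.69 in aNE (SE 0.25, adjusted p = 2.42e-06), and its rise in pNE was 1.94 (adjusted p = 4.7e-05). In aNE-derived cells it fell by 1.13 in forebrain medium (adjusted p = 0.00374) and rose by 1.77 in hindbrain medium (adjusted p = 0.000127). The fall was -0.99 without replicate 2 of aNE_T. In pNE-derived cells it rose by 2.86 in midbrain medium (adjusted p = 1.24e-06) and by 1.30 in hindbrain medium (adjusted p = 0.00109), the second being 0.90 without replicate 1 of pNE and 0.98 without replicate 1 of pNE_H. Between origins it was 2.30 higher in pNE_M than in aNE_M (adjusted p = 2.09e-05) and 1.23 lower in pNE_H than in aNE_H (difference -1.23, adjusted p = 0.00292), the latter -0.90 without replicate 2 of pNE_H. PTCH1 and HHIP, both known as feedback inhibitors, were together highest in pNE_M, but in aNE_H the HHIP level was high and PTCH1 overlapped with aNE_M.

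GLI1 (chr12:57460135-57472262, plus strand), the transcription factor whose own transcription is a common readout of pathway activity, was the most variable member between replicates. Its values were 7.98 and 13.3 TPM in hPSC, 12.8 and 10.1 in aNE and 15.0 and 10.9 in pNE. In aNE-derived cells they were 1.65 and 1.27 TPM in aNE_T, 3.31 and 8.91 in aNE_M and 4.08 and 1.35 in aNE_H. In pNE-derived cells they were 3.37 and 6.59 TPM in pNE_T, 15.4 and 6.69 in pNE_M and 5.84 and 5.99 in pNE_H. All 8 pairs of neighbours in the order of group means overlapped, and the SE of a difference was 0.47.

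GLI1 fell by 2.34 from aNE to aNE_T (adjusted p = 0.00203) and by 1.84 from aNE to aNE_H (adjusted p = 0.00931). The second call was lost without replicate 1 of aNE (difference -1.68, adjusted p = 0.0663) or replicate 2 of aNE_H (-1.29, adjusted p = 0.106). GLI1 was also 1.41 higher in aNE_M than in aNE_T (adjusted p = 0.035), which was lost without either aNE_T library (1.52 and 1.30, adjusted p = 0.088 and 0.148) or replicate 2 of aNE_M (0.81, adjusted p = 0.288), and had an adjusted p of 0.0767 with no filter on low values. GLI1 was not called in any comparison with hPSC, between origins or between pNE and its derivatives. From pNE to pNE_T its difference was -1.26 (adjusted p = 0.0555), which passed without replicate 2 of pNE_T (-1.66), at a filter of 5 TPM and under quantile normalization, and from aNE to aNE_M it was -0.92, which passed without replicate 2 of aNE_M (-1.52, adjusted p = 0.0471). Its difference from hPSC was 0.13 in aNE and 0.28 in pNE, where PTCH1 and HHIP had both risen. GLI1 overlaps ARHGAP9 on the opposite strand, which reached 7.78 TPM, and strand use in the quantification is not given in the sources used here, so its level is uncertain. Other opposite-strand overlaps with a value in the table were CFAP44 with BOC, at up to 3.09 TPM, VSIG10L2 with CDON, at up to 0.872 TPM, and HMGN2P30 with GLI3, listed at 0. The annotation also has opposite-strand genes over PTCH1, HHIP (HHIP-AS1 among them) and GLI2 and a same-strand gene over FOXA2 whose levels were not analysed here.

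GLI2 (chr2:120735623-120992653, plus strand) and GLI3 (chr7:41960950-42237870, minus strand) are the primary transducers, GLI2 mainly as an activator and GLI3 mainly as a repressor. GLI2 moved least of the 9 members, between 16.6 and 37.1 TPM over all libraries. It was at 21.6 and 22.5 TPM in hPSC, 31.9 and 25.9 in aNE, 28.5 and 26.5 in aNE_T, 29.4 and 31.8 in aNE_M and 22.0 and 16.6 in aNE_H. In the posterior route it was at 17.6 and 20.0 TPM in pNE, 33.5 and 37.1 in pNE_T, 20.7 and 21.7 in pNE_M and 29.7 and 28.4 in pNE_H. None of the 18 differences between pairs of groups was called for GLI2, the closest being 0.87 between pNE_T and pNE (SE 0.13, adjusted p = 0.000184). Both pNE_T libraries were above all other libraries, and 6 of the 8 neighbouring pairs overlapped.

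GLI3 was lowest in stem cells and rose in both routes. It was at 9.82 and 9.62 TPM in hPSC, 41.1 and 37.9 in aNE and 21.3 and 27.8 in pNE. The aNE-derived groups overlapped, at 59.7 and 60.5 TPM in aNE_T, 56.8 and 70.5 in aNE_M and 71.7 and 58.0 in aNE_H. The pNE-derived groups were separate, at 36.5 and 40.4 TPM in pNE_T, 80.4 and 77.5 in pNE_M and 28.9 and 32.3 in pNE_H. Both pNE_M libraries were above all other libraries, whereas pNE_T and pNE_H were below every aNE-derived library.

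GLI3 rose in aNE by 1.92 (SE 0.14, adjusted p = 2.16e-07), and in pNE it rose by 1.24 (adjusted p = 1.2e-05). From pNE it rose by 1.66 in pNE_M (adjusted p = 7.39e-07), and it was 1.02 higher in pNE_M than in pNE_T (adjusted p = 8.03e-05), a difference of 0.95 without replicate 1 of pNE_T and 0.995 without replicate 1 of pNE_M. It was 1.34 lower in pNE_H than in pNE_M (difference -1.34, adjusted p = 1.28e-05) and 1.05 lower in pNE_H than in aNE_H (difference -1.05, adjusted p = 8.61e-05). The last value was near the size limit and was -0.90 without replicate 1 of aNE_H and -0.98 without replicate 1 of pNE_H, and -0.99 under both median-ratio scaling and quantile normalization. The ratio of GLI3 to GLI2 was 0.454 and 0.427 in hPSC, 1.29 and 1.47 in aNE and 1.21 and 1.39 in pNE. At day 4 it was 2.10 and 2.28 in aNE_T, 1.93 and 2.22 in aNE_M, 3.26 and 3.50 in aNE_H, 1.09 and 1.09 in pNE_T, 3.89 and 3.57 in pNE_M and 0.974 and 1.14 in pNE_H. The 2 groups with SHH above 0.7 TPM in both libraries were the day-4 groups with a ratio near 1.

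FOXA2 (chr20:22581005-22585455, minus strand), a pioneer factor of floor plate, notochord and endoderm, was high in the same day-4 groups as SHH and was above 1 TPM in pNE at day 2. It stood at 0.213 and 0.169 TPM in hPSC, 0.329 and 0.415 in aNE and 1.63 and 2.19 in pNE. After aNE it was at 0.0203 and 0 TPM in aNE_T, 0.0318 and 0.131 in aNE_M and 0.501 and 0.107 in aNE_H. After pNE it was at 4.36 and 6.01 TPM in pNE_T, 0.0890 and 0 in pNE_M and 4.996 and 4.29 in pNE_H. The 6 libraries of pNE, pNE_T and pNE_H were above the other 12, pNE_T and pNE_H overlapped, and both pNE_M libraries were below pNE.

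FOXA2 was 1.28 higher in pNE than in hPSC (SE 0.20, adjusted p = 0.000273) and 1.08 higher than in aNE (adjusted p = 0.00303), the second being 0.94 without replicate 2 of pNE. It rose by 1.08 from pNE to pNE_T (adjusted p = 0.00116), which was 0.94 without replicate 1 of pNE and 0.89 without replicate 2 of pNE_T, and had an adjusted p of 0.0742 with a pseudocount of 0.1. It fell by 1.47 from pNE to pNE_M (adjusted p = 8.58e-05). Against the aNE-derived cells it was 2.60 higher in forebrain medium (adjusted p = 7.4e-07) and 2.13 higher in hindbrain medium (adjusted p = 5.92e-06). In pNE_H the difference from pNE was 0.96 (adjusted p = 0.00233), under the size limit, but 1.10 and 1.05 without replicate 2 of pNE or of pNE_H, 1.035 under median-ratio scaling and 1.13 under quantile normalization.

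Because FOXA2 is also an endoderm and notochord gene, markers of both were read beside it. The 7 endoderm markers (SOX17, GATA4, GATA6, CXCR4, HNF4A, CER1, FOXA3) summed to 24.8 to 26.2 TPM in hPSC, 19.6 to 20.7 in aNE, 20.6 to 22.8 in aNE_T, 13.9 to 16.7 in aNE_M and 9.51 to 10.04 in aNE_H. In the posterior route they summed to 14.9 to 15.8 TPM in pNE, 19.2 to 19.7 in pNE_T, 38.3 to 39.7 in pNE_M and 30.7 to 31.8 in pNE_H. The sum was thus highest in pNE_M, where FOXA2 was near 0 and CXCR4 alone had 31.4 and 27.7 TPM. Of the 6 endoderm markers tested, GATA6 was higher and CER1 lower in pNE_T than in aNE_T (2.22 and -2.33). GATA4, GATA6 and CER1 were higher in pNE_H than in aNE_H (2.32, 1.68 and 1.85). In pNE_M against aNE_M, where FOXA2 was near 0, 3 of the 6 were also higher and 0 lower. Of all genes, 3.79%, 3.19% and 3.92% were higher in forebrain, midbrain and hindbrain medium, and 3.97%, 2.55% and 2.91% lower.

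SOX17, the defining endoderm factor, was listed at 0 in 13 of 18 libraries and was at 0.0382 and 0 TPM in pNE_T but 1.41 and 0.928 TPM in pNE_H. GATA4 was at 0.595 and 1.03 TPM in pNE_T and 6.59 and 5.63 TPM in pNE_H. GATA6 moved with FOXA2 in part, at means of 1.32 TPM in pNE, 4.35 in pNE_T, 2.34 in pNE_M and 2.47 in pNE_H, against 0.262 or less in the other groups. In pNE_H, then, SHH and FOXA2 stood beside endoderm markers, and in pNE_T beside GATA6 with SOX17 at or near 0. Their part in the FOXA2 and SHH results was not tested. Of the 4 notochord and axial mesoderm markers (TBXT, NOTO, CHRD, NOG), whose sum was 1.84 to 64.4 TPM and largely NOG in the higher libraries, NOTO did not exceed 0.273 TPM and TBXT was at 0.0397 TPM or less in every pNE, pNE_T and pNE_H library.

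**Figure D3:**
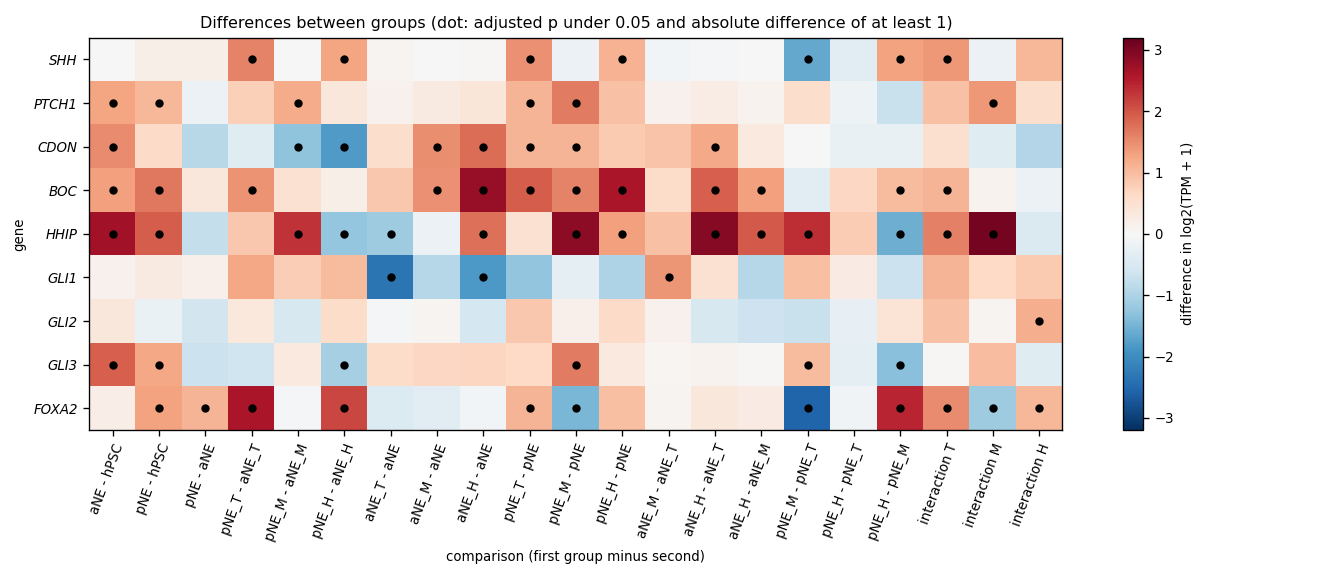
Difference on the log2(TPM + 1) scale (colour) of the 9 genes (rows) in 18 comparisons of group pairs, first group minus second, and in 3 origin-by-medium interactions (columns, the pNE-derived response minus the aNE-derived one). A dot marks an adjusted p under 0.05 with an absolute difference of at least 1. GLI2 has no dot among the 18 pairs, and pNE_H minus pNE_T has none for any gene.

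The comparison of day-2 cells with the stem cells asked how the pathway changed on entry to neural ectoderm. Of the 9 members, 5 rose in aNE (PTCH1, CDON, BOC, HHIP and GLI3) where 7.36% of all 17033 tested genes rose, and 0 fell where 6.19% fell. In pNE 5 rose (PTCH1, BOC, HHIP, GLI3 and FOXA2) against 7.14% of all genes, and 0 fell against 5.74%. The median difference of the members was 1.26 in aNE and 1.07 in pNE, beside 0.065 and 0.049 over all genes. At an unadjusted p under 0.05, 6 and 6 members passed in limma, where 49.1% and 46.6% of all genes did. The 2 comparisons share the hPSC libraries.

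Between pNE and aNE at day 2, at equal density, 1 of 9 members was higher (FOXA2) against 2.37% of all genes, and 0 were lower against 1.48%. CDON, GLI2 and GLI3 had adjusted p-values of 0.000208, 0.00835 and 0.00457 with differences of -0.88, -0.59 and -0.68, short of the size limit. At an unadjusted p under 0.05, 6 of 9 members passed in limma, where 25.8% of all genes did. The call of FOXA2 was lost in a fit of these libraries alone (adjusted p = 0.0681), where 4 of 9 members and 21.8% of all genes passed at that unadjusted p, and a filter at 5 TPM left out SHH and FOXA2 and gave 5 of 7 members and 29.8% of all genes. HHIP had a difference of -0.76 (adjusted p = 0.0643), which was -1.16 without replicate 2 of pNE.

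Between the origins at day 4 the members divided by medium. SHH and FOXA2 were tested only because of the posterior-route groups where they were high. Their calls, in these and in all other counts of members, are therefore not independent of the filter. In forebrain medium 3 were higher in pNE-derived cells (SHH, BOC and FOXA2) against 3.79% of all genes, and 0 lower against 3.97%. In midbrain medium 2 were higher (PTCH1 and HHIP) against 3.19%, and 1 lower (CDON) against 2.55%. In hindbrain medium 2 were higher (SHH and FOXA2) against 3.92%, and 3 lower (CDON, HHIP and GLI3) against 2.91%. The medians of the members were 0.86, 0.315 and 0.37, beside -0.047, -0.041 and -0.044 over all genes.

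The responses from day 2 to day 4 compared the cells of each medium with their day-2 origin. Medium, time in culture and plating density changed together in these comparisons, from aNE and from pNE, and cannot be told apart. From aNE, forebrain medium gave 0 higher members against 4.61% of all genes and 2 lower (HHIP and GLI1) against 4.42%. Midbrain medium gave 2 higher (CDON and BOC) against 4.34% and 0 lower against 7.63%, and hindbrain medium 3 higher (CDON, BOC and HHIP) against 3.24% and 1 lower (GLI1) against 6.83%. In the hindbrain comparison higher calls were 32.2% of all calls, and 42.5% under quantile normalization, with no member call changed. The medians of the members were 0.09, 0.09 and 0.38, beside all-gene medians of 0, -0.023 and -0.042.

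From pNE, forebrain medium gave 5 higher (SHH, PTCH1, CDON, BOC and FOXA2) against 4.68% of all genes and 0 lower against 5.56%. Midbrain medium gave 5 higher (PTCH1, CDON, BOC, HHIP and GLI3) against 4.87% and 1 lower (FOXA2) against 7.85%. Hindbrain medium gave 3 higher (SHH, BOC and HHIP) against 4.47% and 0 lower against 7.80%. That count was 5 under median-ratio scaling and under quantile normalization, which added PTCH1 and FOXA2, and higher calls went from 36.4% of all calls to 42.6% and 46.1%. It was 1 (BOC) in a fit of the compared libraries alone, where SHH and HHIP had adjusted p-values of 0.14 and 0.123 in limma. The medians were 1.08, 1.08 and 0.94, beside all-gene medians of -0.027, -0.063 and -0.079. The comparisons of one origin share its day-2 libraries.

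Media were also compared at equal day, origin and density. In aNE-derived cells, midbrain against forebrain medium gave 1 higher member (GLI1) against 3.50% of all genes and 0 lower against 6.55%. That GLI1 call was lost under several alternatives, as given above. CDON, HHIP and BOC had differences of 0.90, 0.93 and 0.59 there (adjusted p = 5.9e-05, 0.0111 and 0.00504 in limma), short of the size limit. HHIP passed with a pseudocount of 0.1 (1.14) and under quantile normalization (1.07), and CDON without replicate 1 of aNE_M (1.09). Hindbrain against forebrain gave 3 higher (CDON, BOC and HHIP) against 1.78% and 0 lower against 4.83%, and hindbrain against midbrain gave 2 higher (BOC and HHIP) against 2.27% and 0 lower against 2.65%. HHIP was 2.90 higher in aNE_H than in aNE_T and 1.97 higher than in aNE_M (adjusted p = 2.9e-06 and 9.82e-05). CDON and BOC were 1.21 and 1.91 higher in aNE_H than in aNE_T (adjusted p = 8.7e-06 and 6.73e-07). The share of higher calls among all genes in hindbrain against forebrain moved from 26.9% to 39.8% under quantile normalization, with the same 3 members called.

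In pNE-derived cells, midbrain against forebrain medium gave 2 higher members (HHIP and GLI3) against 3.31% and 2 lower (SHH and FOXA2) against 5.29%. FOXA2 was 2.55 lower (difference -2.55, adjusted p = 7.99e-07) and HHIP 2.37 higher (adjusted p = 9.99e-06). Hindbrain against midbrain gave 3 higher (SHH, BOC and FOXA2) against 3.0% and 2 lower (HHIP and GLI3) against 2.99%. There FOXA2 was 2.43 higher (adjusted p = 2.1e-06) and HHIP 1.56 lower (difference -1.56, adjusted p = 0.000572). Hindbrain against forebrain gave 0 higher against 1.65% and 0 lower against 3.38% in limma, with 3 of 9 members and 29.6% of all genes at an unadjusted p under 0.05. So in pNE-derived cells SHH and FOXA2 were high in forebrain and hindbrain medium, and HHIP and GLI3 were high in midbrain medium.

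The interaction asked whether a medium's response differed between the origins. A positive value means a larger rise, or a smaller fall, after pNE than after aNE, and a negative value the reverse. In forebrain medium 4 members had a positive value (SHH, BOC, HHIP and FOXA2) against 3.17% of all genes, and 0 a negative one against 3.97%. In midbrain medium 2 were positive (PTCH1 and HHIP) against 3.33% and 1 negative (FOXA2) against 3.69%. In hindbrain medium 2 were positive (GLI2 and FOXA2) against 3.91% and 0 negative against 3.92%. HHIP in midbrain medium had the largest value, 3.06 (SE 0.35, adjusted p = 5.44e-05), with a response of 2.86 after pNE and -0.19 after aNE. GLI2, with no called pair, differed by 1.16 in hindbrain medium (adjusted p = 0.000678), where its response was 0.60 after pNE and -0.56 after aNE, and by 0.97 without replicate 2 of aNE_H.

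Over the 18 pairs of groups, 59 of 162 tests of members were called, beside 8.78% of the tests of all genes, and 8 of 9 members were called in some pair, beside 37.1% of all genes. Both counts of members include SHH and FOXA2. The other genes of the pathway were read from 6 lists with 50 genes, of which 40 were tested and which were chosen with earlier results of these data known. Among 7 genes of ligand production and release, 5 were tested and 4 were called in some pair, in 26 of 90 tests. SCUBE3 and SCUBE1 help release the lipid-modified ligand, and HHAT attaches its palmitate. HHAT was at a mean of 0.201 TPM in hPSC and 4.28 to 7.19 TPM in every day-4 group, and it rose from day 2 to day 4 in all 6 responses, by 1.09 to 1.60. SCUBE3 was at 0.732 TPM in hPSC and highest in pNE_M, at 18.1 TPM.

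SCUBE1 went in opposite directions in the 2 routes. Its libraries had 0.346 and 1.39 TPM in aNE and 9.16 and 12.8 TPM in pNE at day 2. At day 4 aNE_T had 11.6 and 11.01 TPM against 2.03 and 2.21 TPM in pNE_T. It rose from aNE by 2.78, 1.79 and 1.97 and fell from pNE by 1.93, 2.57 and 2.46 in forebrain, midbrain and hindbrain medium. The interactions were -4.70, -4.37 and -4.43 (adjusted p = 6.83e-06, 1.28e-05 and 1.13e-05). The 2 other ligand genes, DHH and IHH, did not pass the filter and were at most 0.247 and 0.149 TPM.

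The 4 other receptors and co-receptors reported here were all tested, and 3 were called in some pair, beside 37.1% of all genes. These calls were in 24 of 72 tests, beside 8.78% of the tests of all genes. LRP2, an endocytic receptor for SHH in forebrain neuroepithelium, had a mean of 0.279 TPM in hPSC and rose by 5.92 to 76.7 TPM in aNE and by 4.43 to 26.7 TPM in pNE. At day 4 its forebrain groups had means of 88.2 TPM (aNE_T) and 63.0 TPM (pNE_T), against 9.35 to 31.4 TPM in midbrain and hindbrain groups. GAS1, a further co-receptor, had a mean of 54.6 TPM in aNE_T but 20.1 TPM in pNE_T, a difference of -1.40 (adjusted p = 5.24e-06). GPC3, a glypican that competes for ligand, had its highest group mean in aNE_T (506 TPM) and, apart from hPSC at 54.4 TPM, its lowest in pNE_H (109 TPM). SMO, named here after its values were seen as the transducer itself, was at 52.3 TPM in hPSC and 54.1 to 103 TPM in the other groups and was called in no pair.

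The 15 genes of signal relay and the primary cilium were the steadiest list. All 15 were tested, and 2 were called in some pair, beside 37.1% of all genes. These calls were in 4 of 270 tests, beside 8.78% of the tests of all genes. GPR161, a ciliary receptor that restrains the pathway, rose by 1.19 from pNE to pNE_M, reaching 27.5 TPM. IFT88, of the intraflagellar transport machinery, rose by 1.11 and 1.03 from aNE to aNE_T and aNE_H. Of 5 growth genes named as GLI targets, all were called in some pair, in 24 of 90 tests, beside the same all-gene shares. SFRP1 fell by 2.92 from aNE to aNE_M and fell by 3.34 from pNE to pNE_M, MYCN was highest in hPSC at 132.9 TPM and lowest in aNE_T at 26.0 TPM, and BCL2 was highest in aNE_T at 7.44 TPM.

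Ventral and dorsal genes of the neural tube gave the setting for SHH and FOXA2. Of 12 ventral and floor plate genes, 7 were tested and all 7 were called in some pair, beside 37.1% of all genes. These calls were in 49 of 126 tests, beside 8.78% of the tests of all genes. NKX2-1, NKX2-2, NKX6-2, OLIG2 and FERD3L did not pass the filter, with NKX2-2 at 0.172 TPM or less and FERD3L listed at 0 in all libraries. SPON1, the floor plate protein F-spondin, was highest in pNE_T, at 52.3 and 51.7 TPM against 5.69 and 5.77 TPM in aNE_T (difference 2.98, adjusted p = 4.13e-10). It was also at 37.3 and 31.6 TPM in pNE_M, where FOXA2 was near 0. FOXJ1, a factor for motile cilia, was highest in pNE at day 2, at 16.0 and 17.8 TPM, and was 2.09 higher in pNE_T than in aNE_T. Of the same list, NTN1 and LMX1A are named after their values were seen, since they were highest in groups where FOXA2 was low. NTN1, the axon guidance ligand netrin-1, had its highest mean in aNE_T, at 11.8 and 10.8 TPM against 8.78 and 9.52 TPM in pNE_T (difference -0.28, adjusted p = 0.186), and was at 2.28 and 2.27 TPM in pNE_H. LMX1A, a LIM homeobox factor, was highest in aNE, at 4.41 and 4.802 TPM, and was listed at 0 in every pNE_T, pNE_M and pNE_H library.

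NKX6-1, a ventral progenitor factor, was found with midbrain medium from either origin. The aNE_M libraries had 4.87 and 6.46 TPM, those of pNE_M 4.9997 and 4.95 TPM, and those of pNE_H 4.63 and 2.98 TPM. In pNE_T it was at 0.0741 and 0.241 TPM. Its groups thus differed from those of SHH except for pNE_H. Among 7 dorsal genes 4 were tested and all 4 called, in 44 of 72 tests, beside the same all-gene shares of 37.1% and 8.78%. MSX1, a dorsal homeobox gene, was highest in midbrain medium, with 666 and 646 TPM in pNE_M against 279.8 and 243 in aNE_M, and had 42.7 and 34.2 TPM in pNE_H and 1.72 and 2.55 in pNE_T. PAX3, a dorsal paired-box gene, was at 120.4 and 130.0 TPM in aNE_M, 54.2 and 50.3 in aNE_H, 43.0 and 38.9 in pNE_M and 0.708 and 0.470 in pNE_T. MSX2 rose by 4.84 from pNE to pNE_M. Within pNE-derived cells, SHH and FOXA2 were near 0 in the group where MSX1 and PAX3 were highest, and pNE_H had SHH, FOXA2 and MSX1 in the same bulk libraries.

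**Figure D4:**
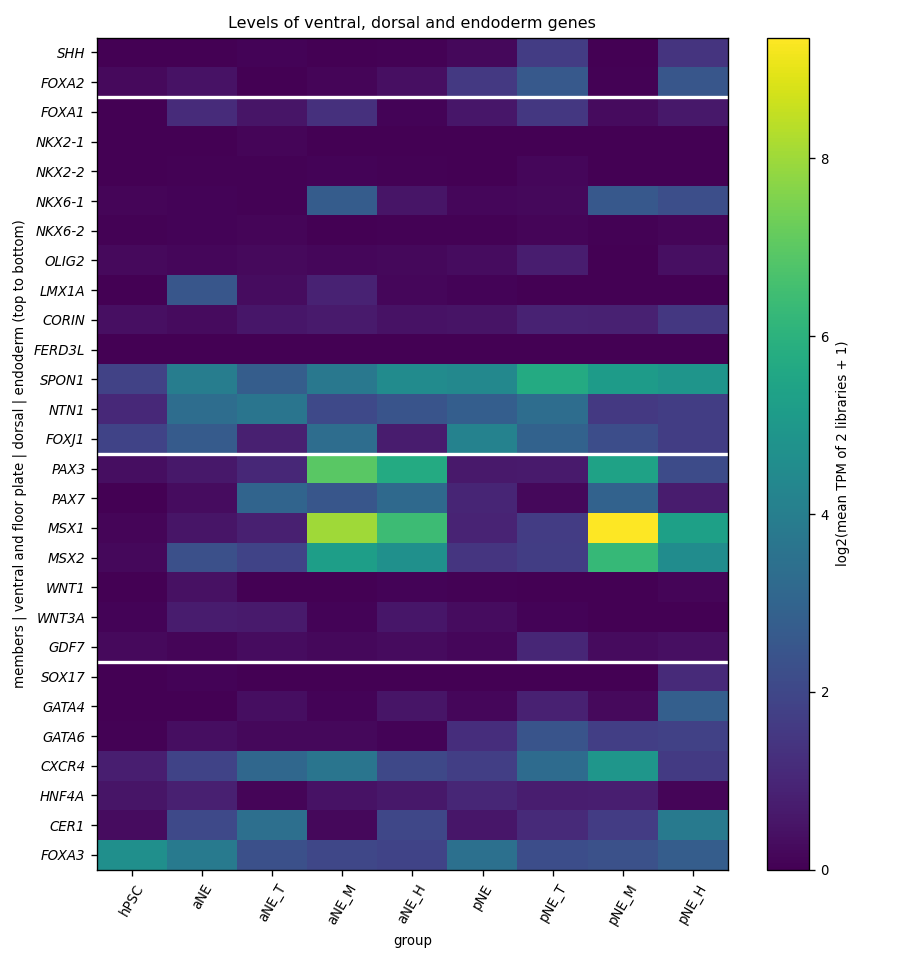
Level on the log2 scale of the mean TPM of 2 libraries plus 1 (colour) in the 9 groups (columns) for SHH and FOXA2, ventral and floor plate genes, dorsal genes and endoderm markers (blocks of rows, top to bottom). All rows share the same colour scale, so SHH and FOXA2 lie at its low end, with their highest means in pNE_T and pNE_H. MSX1, PAX3 and MSX2 are brighter, in the midbrain and hindbrain columns.

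The genes whose group means over the 9 groups were most like each member were named by Pearson's r among the 12431 or 12432 other genes with a symbol and at least 5 TPM in some group. The closest was SPX for SHH (r = 0.984), ZFC3H1 for PTCH1 (0.973), POGK for CDON (0.981), AASDHPPT for BOC (0.984) and OPA3 for HHIP (0.953). For FOXA2 it was GALR2 (0.970), for GLI3 POMZP3 (0.972), for GLI1 FERMT1 (0.939) and for GLI2 PIAS4 (0.875). None of these was a member or a gene of the pathway lists. These values rest on 9 points that share libraries and were chosen as the highest of many, so they are descriptions.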

How the data were processed

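RNA was selected with poly-T beads and sequenced as random-primed libraries, per the labels' protocols. The authors deposited 1 table of TPM values per gene and library. The submitters' processing notes name bcl2fastq, FastQC, Trim Galore, kallisto, deepTools and the build hg38, with no role, order or version. The annotation and the use of strand are not given in the sources used here.

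Values were taken as log2(TPM + 1), keeping the 17033 genes that reached 1 TPM in 2 or more of the 18 libraries. A single fit of all libraries with limma 3.58.1 (R 4.3.3) had a mean for each group, trended variance and 9 residual degrees of freedom, and was checked on simulated data. P-values were two-sided and adjusted by Benjamini-Hochberg over all tested genes in each of 18 pairs of groups and 3 interactions. Calls needed an adjusted p under 0.05 and an absolute difference of at least 1. SE is that of the fit, and level values are given per library. Tables and motif counts were made with Python 3.11.15 and pandas 2.3.3.

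The members and the lists of other genes were chosen with earlier results of these data known. Some genes of the lists are not reported here and are in none of their counts. Besides the members, up to 3 genes per list were named, those called in some pair, with a group mean of at least 5 TPM, that had the largest range of group means, and up to 3 genes most like each member by Pearson's r, of which the first is given. Marker lists covered pluripotent, neural ectoderm, definitive endoderm, notochord and axial mesoderm, neural crest and surface ectoderm cells. Start-site sequences came from RefSeq windows on GRCh38.p14, which held entries for 6 of the 9 members, and gene positions from a GENCODE annotation of GRCh38, matched by symbol. Alternatives tried were calls by adjusted p alone, quantile normalization, median-ratio scaling, a stricter filter (5 TPM), no filter, a pseudocount of 0.1, a replicate block, a fit of the compared libraries alone and leaving out each library.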

Additional observations from a re-analysis of the deposited data

Results flagged for a closer look

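For 9 results the response from day 2 to day 4 in a medium differed between the origins by the interaction test in limma, with positive values meaning a larger rise, or a smaller fall, after pNE than after aNE. Origin and plating density cannot be told apart in these values.

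In forebrain medium the ligand SHH differed by 1.38 (adjusted p = 0.0224), with responses of 1.47 after pNE and 0.09 after aNE. That call was lost without any 1 library of the 4 groups other than replicate 1 of pNE_T, at 1.29 to 1.41 with an adjusted p of 0.0504 to 0.0748, and with a pseudocount of 0.1 (adjusted p = 0.0979). The co-receptor BOC differed by 1.08 (adjusted p = 0.00222), with responses of 1.95 and 0.87, and by 0.998 without replicate 1 of aNE, 0.91 without replicate 1 of pNE and 0.91 without replicate 2 of pNE_T. The ligand-binding inhibitor HHIP differed by 1.62 (adjusted p = 0.00755), with responses of 0.49 and -1.13, and had an adjusted p of 0.0526 in the fit of the compared libraries alone. FOXA2 differed by 1.52 (adjusted p = 0.00298), with responses of 1.08 and -0.44. PTCH1 and GLI2 were short of the size limit, at 0.95 and 0.93 (adjusted p = 0.0019 and 0.00384). Both passed under quantile normalization (1.04 and 1.01), and PTCH1 also under median-ratio scaling (1.0).

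In midbrain medium the receptor PTCH1 differed by 1.39 (adjusted p = 8.7e-05), with responses of 1.66 and 0.28. HHIP differed by 3.06 (adjusted p = 5.44e-05), with responses of 2.86 and -0.19. FOXA2 differed by -1.13 (adjusted p = 0.0196), with responses of -1.47 and -0.34, and that call was lost without replicate 1 of aNE, replicate 2 of aNE_M, replicate 2 of pNE or replicate 2 of pNE_M, at -0.99 to -1.08, and with a pseudocount of 0.1 (adjusted p = 0.0634). GLI3 was just short at 0.99 (adjusted p = 0.00358) and passed without replicate 2 of aNE, aNE_M, pNE or pNE_M, at 1.02 to 1.18. It also passed with a pseudocount of 0.1 (1.02), under median-ratio scaling (1.04) and under quantile normalization (1.05).

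In hindbrain medium GLI2 differed by 1.16 (adjusted p = 0.000678), and by 0.97 without replicate 2 of aNE_H. CDON was short of the size limit at -0.93 (adjusted p = 0.00175), and was -1.04 without replicate 2 of aNE_H and -1.05 without replicate 2 of pNE_H. FOXA2 differed by 1.05 (adjusted p = 0.0248), with responses of 0.96 and -0.09, and the call was lost without either library of aNE, replicate 2 of aNE_H, or replicate 1 of pNE or pNE_H, at 0.83 to 1.095. It was also lost with a pseudocount of 0.1 (adjusted p = 0.193) and in the fit of the compared libraries alone (adjusted p = 0.0771). SHH had an interaction of 1.07 in this medium (adjusted p = 0.0609), which passed without replicate 1 of pNE_H (1.56, adjusted p = 0.00215).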

How the results depend on the processing

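Of 189 member tests, 68 were called, 47 of them under every alternative, and 0 reversed. In the pairs of groups 59 of 162 were called, beside 8.78% of the tests of all genes. The share of all genes called is not given for the alternatives below. Their counts therefore show only how the calls of the members moved, and not whether they exceed that share. Calls by adjusted p alone numbered 4 for pNE against aNE (1 in the fit reported), 19 for origin at day 4 (11), 35 for responses to media (22), 26 between media (15) and 14 for interactions (9). A filter at 5 TPM left out SHH and FOXA2 and gave 0 calls for pNE against aNE, 7 for origin at day 4 and 5 for interactions. The fit of the compared libraries alone also gave 0 for pNE against aNE in limma, with 4 of 9 members at an unadjusted p under 0.05 beside 21.8% of all genes (5 of 7 beside 29.8% at the filter of 5 TPM). It ended 13 calls in all, at adjusted p-values of 0.0526 to 0.167: SHH in pNE_H against aNE_H, pNE and pNE_M, HHIP in the same 3 comparisons and the forebrain interaction, GLI3 in pNE_H against aNE_H, GLI1 in aNE_H against aNE and aNE_M against aNE_T, and FOXA2 in pNE against aNE, pNE_T against pNE and the hindbrain interaction. Leaving out 1 library moved the interactions to between 5 (without replicate 1 of aNE) and 10. With the replicate block the counts were 10, 1, 11, 22, 15 and 9, the same as without it. Libraries of the same replicate number showed no shared deviation over genes: of 36 pairs of groups 0 had deviations correlated over 0.1 (from -0.09 to 0.076). Whether they shared a starting culture or run cannot be told from this check. The pseudocount of 0.1 ended 4 calls: SHH in the forebrain interaction (adjusted p = 0.0979), and FOXA2 in pNE_T against pNE (0.0742) and in the midbrain (0.0634) and hindbrain (0.193) interactions. The read depth is unknown, so whether values of SHH and FOXA2 near 0 differ from 0 was not tested.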
